A study of Mus musculus with 9 samples.

Results

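The respiratory chain genes were taken by name from the table of gene expression in RAW264.7 cells, a mouse macrophage line. The rule took protein-coding genes named Nduf, Uqcr, Atp5 or Cox4 to Cox8, the genes Sdha to Sdhd and every protein-coding gene of the mitochondrial genome. Of 107 such entries among the 54532 genes listed, 101 reached an FPKM (reads scaled to gene length and library size) of 1 in 3 or more of the 9 libraries, and these are the members described here. Nuclear DNA codes for 88 of them and mitochondrial DNA for 13. Among the nuclear members, 36 belong to complex I, 4 to complex II, 8 to complex III, 15 to complex IV and 16 to complex V, and 9 are assembly factors. The 6 entries left out were Cox6b2, Cox7b2, Cox8b, Cox8c, Ndufa4l2 and a second identifier of Atp5o, and 4 of the 6 were listed at 0 in every library.

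The respiratory chain sits in the inner mitochondrial membrane. Complexes I and II take electrons from NADH and succinate and pass them to ubiquinone, complex III passes them to cytochrome c, and complex IV reduces oxygen to water, while complexes I, III and IV pump protons that drive ATP synthesis by complex V. Complexes I, III, IV and V are built from proteins of both genomes, whereas complex II is entirely nuclear, so the assembly of the others draws on both genomes. In macrophages, LPS is known to shift metabolism from respiration to glycolysis, and the chain is a source of mitochondrial superoxide.

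The study compared wild-type RAW264.7 cells that were left untreated (control), given LPS at 1 μg/ml for 6 h, or given LPS at 1 μg/ml with G-CDs at 400 μg/ml for 6 h, with 3 libraries in each group. G-CDs are carbon dots prepared from Glycyrrhiza. The titles of the last group name G-CDs while its treatment label gives LPS alone, and the labels also call the tissue ascites. Because mitochondrial superoxide and membrane potential were also followed in these cells by the study, the question put here to the RNA data is whether transcripts of the chain differed between the groups, by complex and by genome. There was no group with G-CDs and without LPS, the cells are a single cell line, and the sources do not say whether the 3 libraries of a group came from separate cultures, so the p-values measure only the spread between these libraries.

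Depth was between 14752400 and 17312255 reads on genes per library. All 8 macrophage markers examined, among them Csf1r and Cd68, had an FPKM of at least 1 in every library, and all 10 markers of T cells, B cells, epithelium, fibroblasts and hepatocytes were below 1 in every library. In the nuclear members the SD between replicates had a median of 0.389 on the log2(FPKM + 1) scale in the control group, 0.0988 in the LPS group and 0.542 in the LPS + G-CDs group. The same medians over all 11585 genes tested were 0.244, 0.0867 and 0.259. Control replicate 1 stood apart from all other libraries in its protein-coding mitochondrial genes and also in the marker Cd68, at an FPKM of 86.8 against 286 to 418 elsewhere. LPS + G-CDs replicate 3 stood apart in its nuclear members.

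Several mitochondrial genes have near-identical copies in nuclear DNA, and the sequences are shown first because they limit what the values of these genes can mean. The stretch of chromosome 1 from 24611535 to 24616197 (GRCm38) carries 7 annotated unprocessed pseudogenes of this kind. Bases 31 to 90 of mt-Atp6, a proton channel subunit of complex V at positions 7927 to 8607 of the mitochondrial genome, read the same in the gene and in the pseudogene Gm10925 (chr1:24613974-24614651). The first 60 bases of mt-Nd3, a membrane subunit of complex I at positions 9459 to 9806, differ from the pseudogene Gm28438 (chr1:24612775-24613119) by T3C, counted from the first base of the gene. Sequences are from the GENCODE M21 transcripts, 5′ to 3′ in the direction of the mitochondrial gene, and capitals mark the differing base.
mt-Atp6: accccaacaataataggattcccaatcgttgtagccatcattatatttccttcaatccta
Gm10925: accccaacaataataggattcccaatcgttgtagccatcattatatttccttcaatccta
mt-Nd3: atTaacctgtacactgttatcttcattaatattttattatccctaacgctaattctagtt
Gm28438: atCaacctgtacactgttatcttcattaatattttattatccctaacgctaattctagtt

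Over the full length compared, mt-Atp6 and Gm10925 had 0 differing bases in 678, and mt-Nd3 and Gm28438 had 1 in 345. The copies of mt-Co2 (Gm28661, 681 bases), mt-Co3 (Gm28437, 783 bases) and mt-Nd4l (Gm10222, 294 bases) had 0 differences as well. Counted in words of 50 bases, 98% to 100% of mt-Nd3, mt-Nd4l, mt-Atp6, mt-Co3 and mt-Co2 occurred in transcripts of other annotated genes. The share was 62.2% for mt-Nd4, 51.1% for mt-Co1, 8.2% for mt-Nd2 and 7.6% for mt-Nd5, and it was 0 for mt-Nd1, mt-Cytb, mt-Nd6 and mt-Atp8. Only transcripts of annotated genes were searched, so a share of 0 does not show that a gene has no nuclear copy. The stretch on chromosome 1 has no annotated gene matching mt-Atp8 between Gm10925, which ends at 24614651, and Gm28661, which starts at 24614885. A read from a shared stretch cannot be assigned to one place from its letters, and how the authors' counting treated such reads is not given in the sources used here.

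The deposited levels are given beside this division. In the LPS libraries the 5 genes with over 90% shared words had mean FPKM values between 14.1 and 169. Among the 6 genes with under 10% shared words, mt-Nd1, which codes for a core membrane subunit of complex I, averaged 2146 and was the highest, while mt-Atp8, a small subunit of complex V covered by at most 16 reads per library, averaged 1.53 and was the lowest. The pseudogenes carried reads too. The sum of mt-Atp6 and Gm10925 was 18.7, 336 and 375 FPKM in the control libraries, 238, 340 and 222 in the LPS libraries, and 178, 304 and 289 in the LPS + G-CDs libraries. The level of mt-Atp6, mt-Co2, mt-Co3, mt-Nd3 and mt-Nd4l against other genes is therefore uncertain. The gene mt-Nd6 lies on the opposite strand from the other 12, and without a stated use of strand its reads cannot be told apart from those of the transcript across from it. Among the 88 nuclear members 41 shared no word with another gene, and Ndufaf2, at 80.9%, was the only 1 over 50%.

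**Figure D1:**
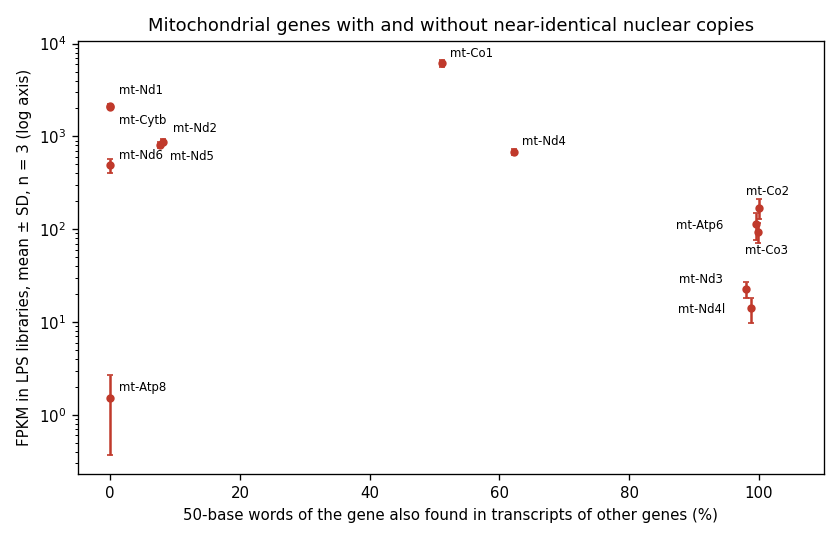
Mean FPKM ± SD (n = 3) of each protein-coding mitochondrial gene in the LPS libraries, on a log axis, against the percentage of its 50-base words found in transcripts of other genes. The 5 genes at the right, with over 90% shared words, lie between 14.1 and 169 FPKM, and mt-Co1 is the highest gene although 51.1% of its words are shared.

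All 13 mitochondrial genes were lowest in control replicate 1 among the control libraries. The core catalytic subunit of complex IV, mt-Co1, had FPKM values of 760, 5868 and 4968 in the control libraries, 5868, 6683 and 5771 in the LPS libraries, and 5881, 5447 and 3826 in the LPS + G-CDs libraries. The other 8 libraries lay between 3826 and 6683, and control replicate 1 lay below all of them. For mt-Cytb, the cytochrome b of complex III and a gene with 0 words shared with annotated transcripts, the values were 166, 2337 and 2237 in control, 2004, 2203 and 2026 with LPS, and 2040, 1915 and 1535 with LPS + G-CDs. The control library thus stood apart in genes with and without words shared with annotated transcripts. Relative to the mean of the other control libraries, control replicate 1 held between 3.59% (mt-Atp6) and 28.9% (mt-Nd5) of the level, with a median of 10.2% over the 13 genes. The corresponding median was 90.8% over the 88 nuclear members and 102% over all genes tested. In bulk RNA, fewer cells of a kind and less RNA per cell cannot be told apart, and the cause of the low mitochondrial values of this library was not tested.

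With LPS, 0 of 13 mitochondrial genes passed the limma test at an adjusted p under 0.05 in either direction, beside 15.8% of all genes tested that were higher and 15.6% that were lower. At an unadjusted p under 0.05, 0 of 13 passed, beside 21.1% and 20.8%. The fitted log2 differences from control were positive in 12 of 13, with a median of 0.91, and the adjusted p-value of mt-Co1, at a log2 difference of 1.12, was 0.251. Without control replicate 1 the median was -0.22, and 10 of the 13 differences were negative, the exceptions being mt-Co1 (0.17), mt-Nd5 (0.34) and mt-Nd4l (0.42). The lowest adjusted p without that library was 0.131, for mt-Nd3 (log2 difference -0.86). The direction of the mitochondrial genes against control therefore rested on a single control library.

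With LPS + G-CDs against LPS the median over the 13 genes was -0.09 (-0.07 without LPS + G-CDs replicate 3), and 0 of 13 passed the test, adjusted (0.25% of all genes higher and 0.242% lower) or unadjusted (7.19% and 8.04%). The values of the LPS and LPS + G-CDs libraries overlapped for each gene except mt-Nd2, a membrane subunit of complex I, whose values of 851, 958 and 821 with LPS were all above those of 798, 780 and 557 with LPS + G-CDs (log2 difference -0.32, 95% interval -2.22 to 1.59, adjusted p = 0.83). Control replicate 1 enters such intervals through the shared estimate of the spread, and without it the adjusted p-values of the 13 genes in this comparison were between 0.306 and 0.994. In LPS + G-CDs replicate 3, mt-Co1, mt-Nd1, mt-Nd2, mt-Nd4, mt-Nd5, mt-Nd4l, mt-Atp8 and mt-Cytb had their lowest value of that group, while mt-Co2, mt-Co3, mt-Nd3, mt-Atp6 and mt-Nd6 had their highest.

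**Figure D2:**
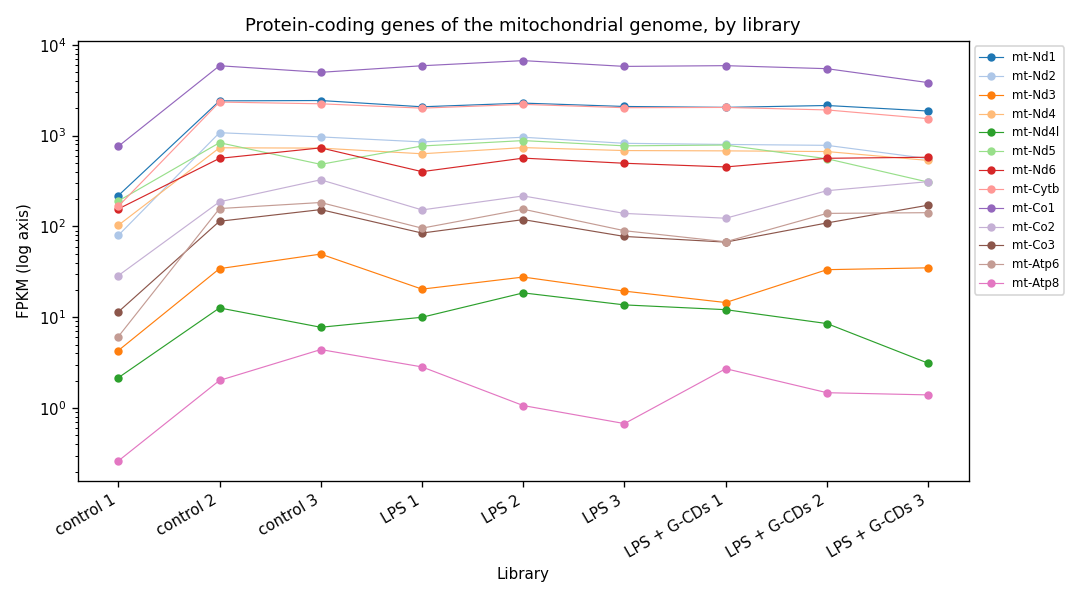
FPKM (log axis) of the 13 protein-coding mitochondrial genes in each of the 9 libraries, with lines joining the values of a gene. Every gene has its lowest control value in control replicate 1, where mt-Co1 is at 760, and over the other 8 libraries 6 of the 13 genes stay within a factor of 2.

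Nuclear members had lower mean values with LPS than in control cells in most cases, and 3 of these differences passed the adjusted test. The log2 difference was negative for 75 of 88 nuclear members, with a median of -0.36, beside a median of 0.02 over all genes tested. Without control replicate 1 the nuclear median was -0.34, and without control replicate 3 it was -0.19. At an adjusted p under 0.05, 3 members fell, namely Sdha, Ndufaf3 and Ndufaf7, and 0 rose. Over all genes tested, 15.6% were lower and 15.8% were higher by the same test, so 3 of 101 was below the background. Without overlap between the groups, 31 members were lower and 0 were higher with LPS, beside 25.1% and 27.4% of all genes tested. At an unadjusted p under 0.05, 11 members were lower and 0 were higher, beside 20.8% and 21.1% of all genes tested.

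Sdha, the flavoprotein that oxidises succinate in complex II (chr13:74322254-74350280, minus strand), had FPKM values of 79.7, 74 and 75.8 in control, 64.2, 54.6 and 58.8 with LPS, and 57.6, 59.4 and 57.9 with LPS + G-CDs. The control values lay above all others, and the values with LPS and with LPS + G-CDs lay together. Sdha fell by 0.37 on the log2 scale with LPS (SE 0.11, adjusted p = 0.0335) and differed by -0.02 between LPS + G-CDs and LPS (95% interval -0.27 to 0.23). The other subunits of complex II were lower in mean value as well. The iron-sulfur subunit Sdhb had 62.9, 50 and 74.5 in control and 36.5, 36.2 and 39 with LPS (log2 difference -0.71, adjusted p = 0.0684). The membrane anchors had log2 differences of -0.43 for Sdhc (adjusted p = 0.14) and -0.46 for Sdhd (adjusted p = 0.166), and the groups overlapped for Sdhd alone of the 4 subunits.

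The other called members were assembly factors of complex I. Ndufaf3 (chr9:108565537-108567434, minus strand), which acts early in the assembly of the matrix arm, had FPKM values of 12.2, 9.06 and 11.1 in control, 4.66, 5.51 and 5.87 with LPS, and 5.45, 8.19 and 12.7 with LPS + G-CDs. It fell by 0.89 on the log2 scale with LPS (SE 0.25, adjusted p = 0.0249). Ndufaf7 (chr17:78937136-78948052, plus strand), a methyltransferase of the mitochondrial matrix, had 6.68, 4.41 and 4.89 in control, 2.89, 3 and 2.79 with LPS, and 2.96, 3.99 and 6.12 with LPS + G-CDs. Ndufaf7 fell by 0.68 (SE 0.22, adjusted p = 0.0396). For both genes the LPS + G-CDs values spread from the level of the LPS libraries to that of the control libraries, and the differences from LPS did not pass the test (adjusted p = 0.325 and 0.339).

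The number of calls moved with the libraries and with the scaling. With the replicate number as a block, 5 members fell with LPS, and these were Sdha, Ndufaf3, Sdhb, Ndufs7 and Ndufb10, while the call of Ndufaf7 was lost (adjusted p = 0.0506 with the block). Ndufs7 and Ndufb10 are complex I subunits chosen after their values were seen. Without control replicate 1, without control replicate 3 or without any 1 of the LPS libraries, 0 members passed. Without LPS + G-CDs replicate 3, which enters the comparison only through the shared spread, 14 passed, all 3 of the calls above among them. The count was 5 without control replicate 2 (Ndufa8, Ndufaf3, Ndufaf7, Ndufs7 and Sdhc), 7 without LPS + G-CDs replicate 1 and 1 without LPS + G-CDs replicate 2 (Ndufaf3). Each of these counts was below the share of all genes tested that were lower in the same fit, which was 17.2% with the block, 18.3% without LPS + G-CDs replicate 3, 13.8% without control replicate 2, and 17.4% and 12.9% without LPS + G-CDs replicates 1 and 2. Rescaled to TPM, 47 members fell and 0 rose, the nuclear median was -0.64 and the median of all genes tested shifted to -0.23, with 75.3% of all calls lower in place of 49.7%. The 47 were 46.5% of the members, beside 26.4% of all genes tested that were lower with TPM. With quantile scaling 29 members fell, which were 28.7%, beside 20.3%. Under these 2 scalings the share of members was thus above that of all genes, whereas it was below as reported.

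By complex, the nuclear members of complexes I, III and V had median log2 differences of -0.38, -0.37 and -0.39 with LPS, complex II had -0.44 and complex IV had -0.10. The count of members lower without overlap was 16 of 36 in complex I, 3 of 4 in complex II, 2 of 8 in complex III, 1 of 15 in complex IV, 5 of 16 in complex V and 4 of 9 among the assembly factors, beside 25.1% of all genes tested. The complex IV median was -0.29 without control replicate 1 and 0.11 without control replicate 3, so its sign rested on the control libraries. The medians of the other 4 complexes stayed negative without either, from -0.50 (complex II) to -0.27 (complex III) without the former and from -0.39 (complex II) to -0.21 (complex I) without the latter. No test compared the complexes. Among complex I subunits picked after their values were seen, Ndufs7, an iron-sulfur subunit next to the site of ubiquinone reduction, had 67.3, 50.8 and 87.7 in control and 37.9, 35 and 37.9 with LPS (log2 difference -0.84, adjusted p = 0.0583). At the other end, the accessory subunit Ndufa12 had 1.8, 16.5 and 7.34 in control and 5.58, 10.4 and 12.6 with LPS, so that its control libraries spanned the LPS values.

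**Figure D3:**
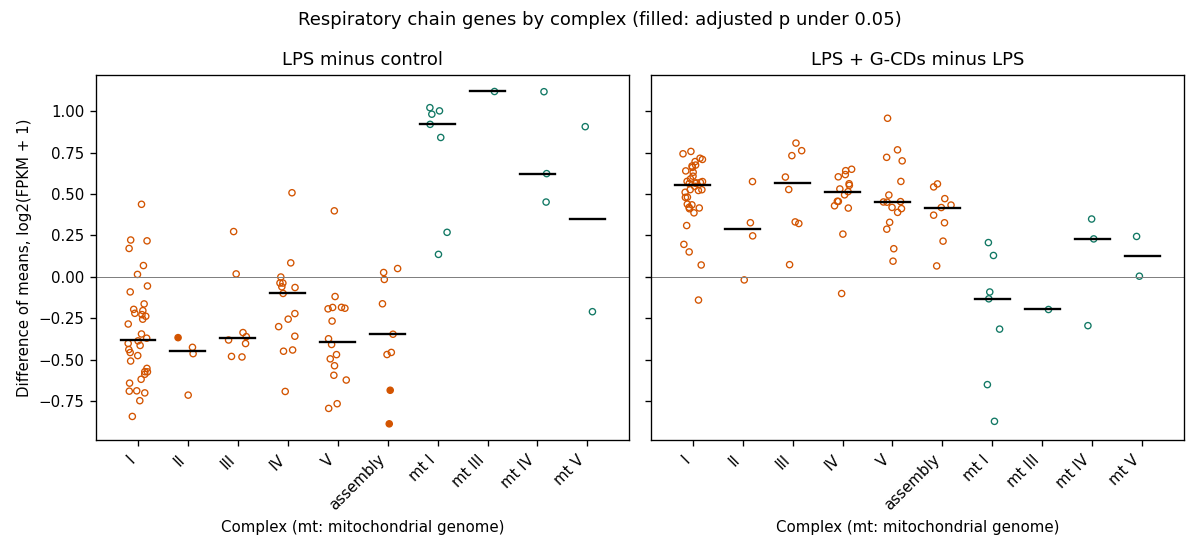
Differences of group means on the log2(FPKM + 1) scale for each member, grouped by complex and genome (mt, mitochondrial genome), with bars at the medians and filled symbols at an adjusted p under 0.05. Filled symbols are Sdha, Ndufaf3 and Ndufaf7 with LPS, the nuclear medians lie between -0.44 and -0.10 with LPS and between 0.29 and 0.56 with LPS + G-CDs, and the positive mitochondrial values with LPS include control replicate 1.

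Control libraries also differed among themselves in single nuclear members, in both directions. In control replicate 1, 10 of 88 nuclear members (11.4%) were under 50% of the mean of the other control libraries, beside 6.74% of all genes tested. The c-ring subunit gene Atp5g2 had 15.8 in that library and 62.9 and 91 in the others, and the complex IV subunit gene Cox7a2 had 21.8 against 72.3 and 130. In contrast, the epsilon subunit gene of complex V, Atp5e, had 106 in that library and 33.7 and 57.4 in the others. Control replicate 3 held the highest control value of 63 of the 88 nuclear members (71.6%), beside 35.7% of all genes tested. Control replicate 2 held the lowest of 49 (55.7%), beside 28.3% of all genes tested. The summed FPKM of nuclear members was 5809, 4767 and 7014 in the control libraries and 4669, 4346 and 4707 in the LPS libraries.

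Between LPS + G-CDs and LPS, 0 members passed an adjusted p under 0.05, beside 0.25% of all genes that were higher and 0.242% that were lower with G-CDs. The log2 difference was nevertheless positive for 85 of 88 nuclear members, with a median of 0.50 (0.02 over all genes tested). At an unadjusted p under 0.05, 5 members were higher and 0 were lower, beside 7.19% and 8.04% of all genes. Without overlap between the groups, 18 members were higher and 2 were lower (Ndufs1 and mt-Nd2), beside 12.9% and 15% of all genes. Medians by complex were 0.55 for complex I, 0.29 for complex II, 0.56 for complex III, 0.51 for complex IV, 0.45 for complex V and 0.42 for the assembly factors. Without LPS + G-CDs replicate 3 the medians of complexes I to V were 0.25, 0.14, 0.27, 0.20 and 0.16.

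The level of the nuclear members differed between the LPS + G-CDs libraries more than between the groups. Taken against the mean of the LPS libraries, the median nuclear member was at 0.01, 0.46 and 1.03 log2 units in LPS + G-CDs replicates 1, 2 and 3, and at 0.23, 0.10 and 0.64 in the control libraries. Replicate 3 was the highest of its group for 83 of 88 nuclear members and replicate 1 the lowest for 84 of 88. Over all genes tested, replicate 3 was the highest for 46.4% and replicate 1 the lowest for 45.9%. Without replicate 3 the median nuclear difference was 0.22, and without replicate 1 it was 0.76. The summed FPKM of nuclear members was 4532, 6099 and 9154 in these libraries, while that of mitochondrial genes was 12960, 12610 and 9860.

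The ratio of summed mitochondrial to summed nuclear FPKM was accordingly 2.86, 2.07 and 1.08 in the LPS + G-CDs libraries. It was 2.78, 3.42 and 2.76 in the LPS libraries and 0.297, 3 and 1.89 in the control libraries. The LPS group alone held a tight range. The lowest ratios came from control replicate 1, with the lowest sum of protein-coding mitochondrial genes, and from LPS + G-CDs replicate 3, with the highest nuclear sum.

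**Figure D4:**
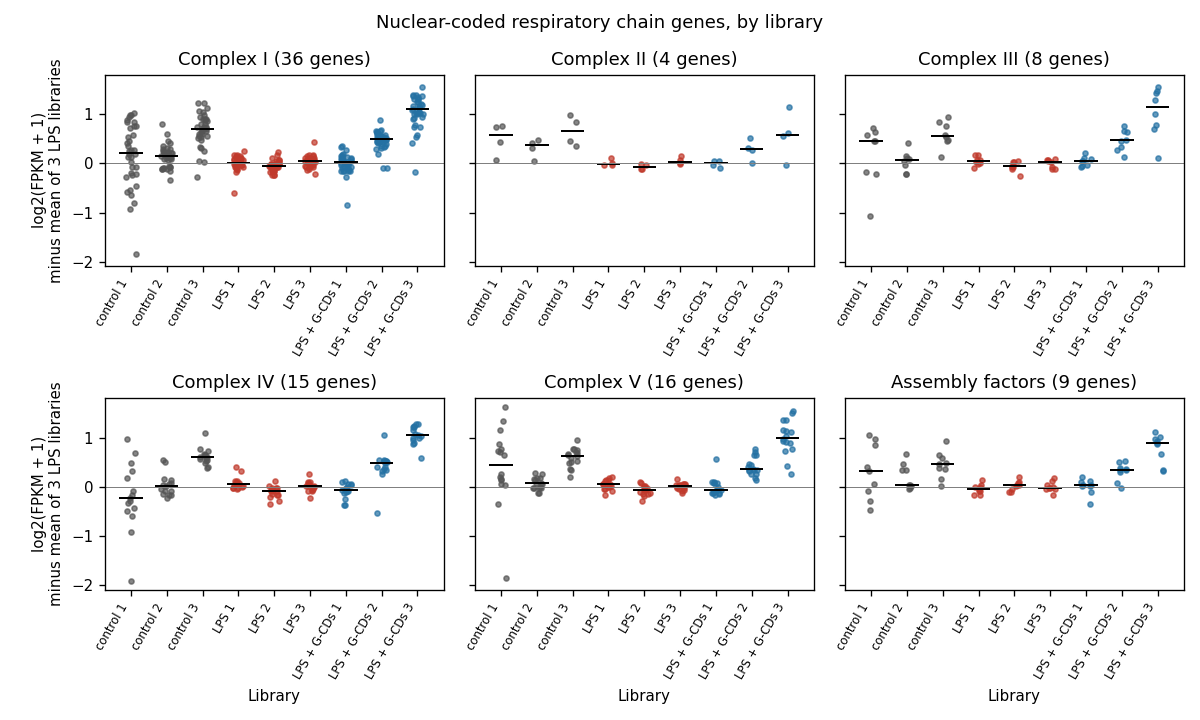
Each point is a nuclear member in a library, plotted as log2(FPKM + 1) minus its mean over the 3 LPS libraries, in panels by complex, with bars at the medians. The LPS libraries and LPS + G-CDs replicate 1 lie near 0, LPS + G-CDs replicate 3 has a median of 1.03 over all nuclear members, and control replicate 1 has the widest scatter among the controls.

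The members with an unadjusted p under 0.05, chosen after their values were seen, were small accessory subunits and an assembly factor. Atp5k, the e subunit of the membrane part of complex V (chr5:108433244-108434448, minus strand), had FPKM values of 39.5, 25.9 and 34.5 in control, 23.1, 16.9 and 23.5 with LPS, and 31.7, 36.8 and 61.6 with LPS + G-CDs. All of the last group lay above the LPS group, and the control group overlapped them. The log2 difference of Atp5k was 0.96 (95% interval 0.36 to 1.55, unadjusted p = 0.00537, adjusted p = 0.204). The others were Uqcr10 of complex III (0.76, adjusted p = 0.317), Ndufa5 (0.74, adjusted p = 0.319) and Ndufs5 (0.70, adjusted p = 0.32) of complex I, and the assembly factor Ndufaf6 (0.47, adjusted p = 0.325). Each was highest in LPS + G-CDs replicate 3. The values of replicates 1, 2 and 3 were 75, 101.8 and 176.5 for Uqcr10 and 23.7, 29.2 and 52.1 for Ndufa5. They were 40.5, 52.6 and 88.9 for Ndufs5 and 10.2, 11.7 and 19.1 for Ndufaf6.

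Core subunits varied in their differences with G-CDs, and those given here were picked after their values were seen. Ndufs1, the largest subunit of complex I and a carrier of iron-sulfur clusters, had 15.9, 16.2 and 17.1 with LPS and 14.6, 15.3 and 14.5 with LPS + G-CDs (log2 difference -0.14, 95% interval -0.47 to 0.19), and was 1 of the 2 members lower without overlap. The differences of the core subunits Ndufv2, Ndufs7, Ndufs8, Ndufs3 and Ndufv1 of complex I were positive, at 0.57, 0.53, 0.48, 0.44 and 0.43, and did not pass the test. The catalytic beta subunit of complex V, Atp5b, had 355, 338 and 369 with LPS and 327, 403 and 479 with LPS + G-CDs (0.17, interval -0.25 to 0.59). The core protein Uqcrc2 of complex III had 64.1, 65.5 and 59.7 with LPS and 61.7, 69 and 68.6 with LPS + G-CDs (0.07, interval -0.22 to 0.37).

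Gene length moved with these values. Nuclear members had a median deposited length of 1688 bases, beside 3758 over all genes tested. In LPS + G-CDs replicate 3, Spearman's rho between length and the difference from the LPS mean was -0.49 over the 88 nuclear members and -0.46 over the 11585 genes, as a description across genes, which share a library and are not independent. In replicate 2 the values were -0.53 and -0.39, and in replicate 1 they were -0.29 and 0.07. A smooth of all genes against length gave a median of 0.55 at the lengths of the nuclear members in replicate 3, where the members themselves had 1.03, and of 0.23 in replicate 2, where they had 0.46. In control replicate 3 it gave 0.29 where the members had 0.64. With such a trend over all libraries removed, the median nuclear difference between LPS + G-CDs and LPS was 0.28 and that between LPS and control was -0.25. The part of length or of RNA quality in these differences was not tested further.

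**Figure D5:**
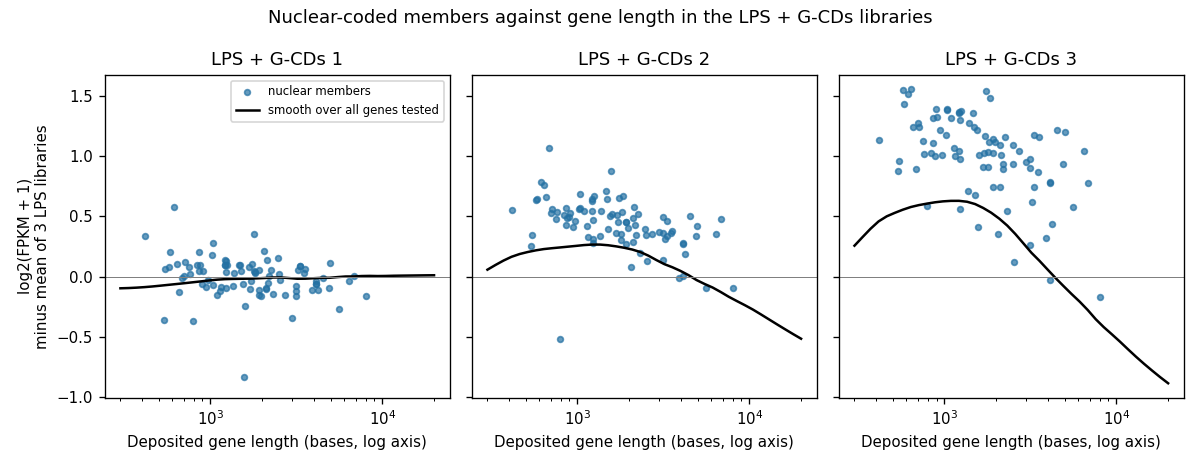
Nuclear members in the 3 LPS + G-CDs libraries, as log2(FPKM + 1) minus the mean of the LPS libraries, against the deposited gene length on a log axis, with a smooth (black) over all 11585 genes tested. In replicate 3 the members have a median of 1.03 and the smooth a median of 0.55 at their lengths, and in replicate 1 both lie near 0.

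Complex IV has several subunits with tissue isoforms, of which the widely expressed forms dominated. Cox4i1 had 231, 216 and 224 FPKM with LPS, and its isoform Cox4i2 had 1.47, 1.75 and 1.4. Cox6a1 had 268, 228 and 277, and the heart and muscle form Cox6a2 had 2.13, 0.852 and 1.21. Cox7a2 and Cox7a2l had means of 84.7 and 75.9, and the heart and muscle form Cox7a1 had 1.22, 0.677 and 0.514, from 9, 5 and 4 reads. Cox8a had 259, 213 and 240, Cox6b1 had 133, 127 and 142, while Cox8b was at most 0.191 with LPS and the testis forms Cox6b2 and Cox8c were listed at 0. None of these isoforms passed the test in either comparison, and the isoform order was the same in all 9 libraries for Cox4i1 over Cox4i2, Cox6a1 over Cox6a2, and Cox7a2 and Cox7a2l over Cox7a1. Cox7a2 was below Cox7a2l in control replicates 1 and 2 and above it in the other 7 libraries.

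Ndufa4, a subunit of complex IV, had 47.1, 58.1 and 85 in control, 57.8, 56.2 and 58 with LPS, and 58.6, 83.8 and 140 with LPS + G-CDs (log2 differences -0.10 and 0.62, adjusted p = 0.835 and 0.335). Its paralog Ndufa4l2 was below an FPKM of 1 in every library, and the related gene AA467197 reached at most 0.181.

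Beyond the members, 64 other nuclear genes of the pathway or of mitochondria passed the filter on low values. With LPS, 4 of them rose and 5 fell at an adjusted p under 0.05, beside 15.8% and 15.6% of all genes tested. Sod2, the superoxide dismutase of the mitochondrial matrix, had 9.93, 10.8 and 13.5 in control and 64.5, 61.7 and 62.8 with LPS, a rise of 2.38 on the log2 scale (adjusted p = 8.82e-06). Uqcc3, an assembly factor of complex III, had 30.2, 14 and 23 in control and 8.99, 7.25 and 7.72 with LPS, and fell by 1.32 (adjusted p = 0.0109). Ppargc1b, a transcriptional coactivator of mitochondrial genes, fell by 1.02 (adjusted p = 0.00388), and Coa6, a copper delivery factor of complex IV, fell by 0.86 (adjusted p = 0.0456). Cox17, a copper chaperone of complex IV, rose by 0.66 (adjusted p = 0.0254) from a low level of 0.803, 1.29 and 1.07 FPKM. The other calls, named after their values were seen, were rises of Ttc19 and Mterf3 and falls of Bcs1l and Tmem126b. With LPS + G-CDs against LPS, 0 of the 64 passed the adjusted test and 7 passed unadjusted, 6 higher and 1 lower, beside 7.19% and 8.04% of all genes. The lower one was the coactivator gene Pprc1 (-0.65, adjusted p = 0.236). Among the other regulators, also named after their values were seen, the log2 differences with LPS were 0.46 for Gabpa (adjusted p = 0.0607), 0.31 for Pprc1, 0.23 for Gabpb1, 0.11 for Yy1, 0.07 for Nrf1 and -0.06 for Esrra, and none of them passed the adjusted test. Of 18 mitochondrial genes that are not protein-coding, 0 passed the adjusted test in either comparison. The shares of all genes higher and lower were 15.8% and 15.6% with LPS, and 0.25% and 0.242% with LPS + G-CDs against LPS. Several of the 18 are tRNA genes with few reads, such as mt-Tr (at most 2 in a library) and mt-Tm (at most 6), which limits the test.

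Promoters of nuclear members were described by motif because factors such as NRF1, the ETS factor GABP, YY1 and ERR are known regulators of this gene set. RefSeq windows (GRCm38.p6) of 300 bases, 250 before and 50 after the start, matched 71 of 88 members by gene identifier or else by symbol. The NRF1 core CGCATGCG was found on either strand in 11 of 71 (15.5%), beside 2.07% of all 27025 genes with a window. The ETS letters CCGGAAG were found in 18 (25.4%, all genes 9.93%), the YY1 letters AAGATGGC in 10 (14.1%, all genes 3.19%) and the ERR letters TCAAGGTCA in 2 (2.8%, all genes 0.47%). The letters of the antioxidant response element, TGACNNNGC, were found in 11 (15.5%, all genes 13.99%). A gene counted when any of its windows held the letters, the motifs could overlap, and no match says only that these letters are not in the window. The YY1 letters were in 7 of 32 complex I promoters, and the NRF1 core in 4 of 13 complex V promoters.

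Windows are shown for the member with the lowest p with LPS + G-CDs (Atp5k), for a member with 3 kinds of motif (Atp5j, a coupling factor of complex V) and for called members with and without a match (Ndufaf3 and Sdha). Capitals mark the motifs, which are the NRF1 core and the ETS letters (on the opposite strand) in Atp5k, the NRF1 core, the YY1 letters and the ETS letters in this order in Atp5j, and the antioxidant response letters on the opposite strand in Ndufaf3. The windows are chr5:108434350-108434649 for Atp5k, chr16:84834927-84835226 for Atp5j, chr9:108567387-108567686 for Ndufaf3 and chr13:74350191-74350490 for Sdha, all on the minus strand. Atp5j has another window, chr16:84835576-84835875, at the start of the deposited gene, which holds none of the motifs and is not shown. The window shown lies inside the deposited gene and also covers the start region of Gabpa on the plus strand.
Atp5k: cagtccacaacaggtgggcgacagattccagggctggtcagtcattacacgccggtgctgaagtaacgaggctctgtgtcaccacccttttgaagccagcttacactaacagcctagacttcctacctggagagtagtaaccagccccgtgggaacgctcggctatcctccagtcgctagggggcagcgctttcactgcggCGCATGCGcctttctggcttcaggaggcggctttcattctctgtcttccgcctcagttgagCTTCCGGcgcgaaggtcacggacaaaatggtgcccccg
Atp5j: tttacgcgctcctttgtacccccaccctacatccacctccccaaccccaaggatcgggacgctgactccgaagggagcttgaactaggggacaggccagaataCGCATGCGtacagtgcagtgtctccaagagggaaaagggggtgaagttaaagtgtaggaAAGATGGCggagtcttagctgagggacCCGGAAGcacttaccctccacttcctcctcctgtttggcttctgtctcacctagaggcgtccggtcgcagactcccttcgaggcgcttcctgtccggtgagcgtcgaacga
Ndufaf3: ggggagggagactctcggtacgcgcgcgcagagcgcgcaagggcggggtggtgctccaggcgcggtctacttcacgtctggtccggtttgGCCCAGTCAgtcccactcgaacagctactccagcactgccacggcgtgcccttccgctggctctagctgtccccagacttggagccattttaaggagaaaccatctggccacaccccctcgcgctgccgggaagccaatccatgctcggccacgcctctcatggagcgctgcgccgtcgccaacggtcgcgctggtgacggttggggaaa
Sdha: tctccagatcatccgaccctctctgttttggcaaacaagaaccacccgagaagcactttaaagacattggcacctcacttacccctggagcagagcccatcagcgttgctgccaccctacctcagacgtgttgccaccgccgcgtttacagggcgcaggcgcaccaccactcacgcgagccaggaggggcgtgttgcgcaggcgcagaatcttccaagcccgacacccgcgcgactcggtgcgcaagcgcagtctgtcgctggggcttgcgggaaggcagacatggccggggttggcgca

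Medians of members with and without a motif are given without a test. With LPS + G-CDs against LPS the median log2 difference was 0.45 over the 11 members with the NRF1 core and 0.51 over the 60 without it, 0.57 over the 18 with the ETS letters and 0.49 over the 53 without them, and 0.48 over the 11 with the antioxidant response letters and 0.51 over the 60 without them. With LPS against control, the medians with and without were -0.36 and -0.37 for the NRF1 core, -0.44 and -0.36 for the ETS letters, and -0.16 and -0.38 for the antioxidant response letters. For the YY1 letters, in 10 members, they were 0.53 and 0.49 with LPS + G-CDs against LPS and -0.32 and -0.37 with LPS against control.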

How the data were processed

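RNA-seq libraries of RAW264.7 cells were made by the authors from mRNA bound to poly-T beads and sequenced on an Illumina instrument. The authors deposited FPKM values per gene and library with gene lengths and coordinates, and the processing notes of the submitters name the builds GRCm38 and mm10, while the aligner and the counter are not given in the sources used here. All 9 value columns were mapped to samples by name and 0 others were present. FPKM multiplied by gene length gave whole reads, within 0.05 reads, in 100% of cases, and the library size used by the authors was 0.88 to 1.14 times the reads on genes.

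The 11585 genes that reached an FPKM of 1 in 3 or more libraries were fitted as log2(FPKM + 1), with a pseudocount of 1, by limma 3.58.1 in R 4.3.3 (lmFit, eBayes with trend, 1 model of the 9 libraries, two-sided tests, Benjamini-Hochberg adjustment over all genes tested). Differences on this scale understate the change of low genes, and the read depth limits the precision of genes with few reads. The members, the lists and the rule for named genes were chosen with earlier results of these data known. The rule named called members, every mitochondrial gene, Sdha to Sdhd, the isoform sets of complex IV, Ndufa4 and its paralogs, and the 5 companion genes with the largest change among those called. The companion list held 73 symbols and covers assembly, mitochondrial genome expression, regulators, electron carriers and 3 other mitochondrial genes (Sod2, Ucp2 and Atpif1). The fit was also run on simulated data drawn independently for each gene and library. Such data lack the library-wide deviations seen here, so no support for the calls is drawn from that run.

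The settings tried besides were a changed pseudocount, dropping or tightening the filter, scaling by TPM, by quantiles or by median of ratios, fitting only the 6 libraries compared, no variance trend, voom on reads, removal of length trends, a replicate block, each library left out and the threshold of the study. Deviations from the group means correlated at 0.103, 0.137 and 0.113 between same-numbered control and LPS libraries. Between same-numbered LPS and LPS + G-CDs libraries the correlations were 0.095, 0.08 and 0.143. Differently numbered libraries had correlations between -0.164 and 0.068. The values are small and similar in both comparisons, so they do not settle whether the numbers pair the libraries. The main fit used no replicate block. The labels do not say what a number stands for. Coordinates of 95 of 101 members equaled those of GENCODE release M21. Tables were prepared in Python 3.11.15 with pandas 2.3.3.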

Additional observations from a re-analysis of the deposited data

How the results depend on the processing

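The number of members that fell with LPS, 3 as reported, was 1 without a filter (6.95% of all genes), 47 with TPM, 29 with quantile scaling, 12 with the 6 libraries of the comparison alone, 18 and 9 with length trends removed within groups and over all libraries (beside 17.4%, 19.2% and 17.9% of all genes in these 3 settings), 5 with the replicate block, 1 (Ndufaf3) at the threshold of the study (11.2% of all genes) and between 0 and 14 with a library left out (10.3% to 18.3%). The 1 gene without a filter was Sdha, and the cause of these shifts was not tested. With LPS, the call was lost in 8 of 22 settings for Sdha, 6 of 22 for Ndufaf3, 11 of 22 for Coa6, 9 of 21 for Ndufaf7 and 7 of 21 for Cox17, the last 2 not being tested under the stricter filter. No member rose with LPS under any of these settings. The number that rose with LPS + G-CDs, 0 as reported, was 6 with the length trend within groups removed (Atp5k, Ndufa5, Ndufaf5, Ndufaf6, Ndufs5 and Uqcr10; 5.94% of the members, beside 2.96% of all genes tested) and 1 (Atp5k) at the threshold of the study (1.24% of all genes), and the replicate block changed no call there. The nuclear median with LPS kept its sign, from -0.64 (TPM) to -0.19 (without control replicate 3), and that with LPS + G-CDs lay between 0.22 and 0.76. The complex II median with LPS was -0.72 with TPM and -0.64 with quantile scaling. The mitochondrial median with LPS + G-CDs was -0.37 with the length trend over all libraries removed.

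Signs of single genes that did not pass the test reversed in places. With a library left out, the LPS difference ranged from -0.17 to 1.56 for mt-Nd1, -0.14 to 1.76 for mt-Cytb, -0.22 to 1.65 for mt-Nd2, -0.10 to 1.31 for mt-Nd4, -0.41 to 0.70 for mt-Nd6, -0.57 to 1.16 for mt-Co2, -0.62 to 1.73 for mt-Atp6, -0.52 to 1.30 for mt-Co3, -0.86 to 0.77 for mt-Nd3, -0.33 to 0.43 for Cox8a and -0.19 to 1.07 for Cox7a2, the lowest value of each being that without control replicate 1. It ranged from -0.77 to 0.28 for mt-Atp8, -0.29 to 0.13 for Ndufa4 and -0.27 to 0.15 for Cox4i2. The LPS + G-CDs difference ranged from -0.00455 to 0.24 for mt-Nd6, -0.18 to 0.35 for mt-Atp6, -0.10 to 0.57 for mt-Co3, -0.0747 to 0.0406 for Sdha, -0.00678 to 0.60 for mt-Nd3, -0.00633 to 0.59 for mt-Atp8, -0.44 to 0.11 for Cox4i2 and -0.0508 to 0.566 for Cox7a1. With TPM the LPS difference was -0.19 for Cox8a, -0.0895 for mt-Nd3 and -8.13e-05 for mt-Nd6, with quantile scaling -0.18 for Cox8a and -0.10 for mt-Nd6, with the length trend over all libraries removed 0.0412 for Cox4i2 and 0.0711 for Ndufa4, and with voom 0.00247 for Cox4i2. The LPS + G-CDs difference of mt-Atp6, 0.0038 as reported, was -0.17 with TPM, -0.16 with quantile scaling, -0.00648 with median-of-ratios and -0.24 with the length trend over all libraries removed. That of mt-Nd6 was -0.0406, -0.172 and -0.0708 with TPM, quantile scaling and the length trend removed, and the last gave -0.0428 for Sdhd and -0.0255 for mt-Co3.

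Few reads (at most 16 for mt-Atp8 and 25 for Cox7a1 in a library) and shared sequence limit single mitochondrial genes and muscle isoforms, and 3 libraries a group with unequal spread limit every call.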
